A study of Mus musculus with 2 samples.

Results

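Zinc finger and BTB genes were examined in small intestinal organoids with and without epithelial adiponectin. The group was every gene whose symbol starts with Zfp, Zbtb, Zkscan, Zscan, Zik, Zim, Zic or Znf, which gave 27 of the 1448 genes in the deposited count tables. Of these, 24 were Zfp genes, 2 were Zbtb genes and 1 was a Zscan gene, and the other symbol starts had no listed gene. The AdipKO organoids were grown from mice of genotype Adipfl/flpVilli-CreT, in which loxP sites flank the adiponectin gene and the villin promoter drives Cre, so that recombination is aimed at the gut epithelium. For WT organoids the genotype was Adipfl/fl, with the same floxed gene and no Cre named. Both cultures were started from EDTA-released crypts and fed the same ENR medium, which supplies Noggin, R-spondin and epidermal growth factor. No source used here gave the age of the mice or the number pooled for each culture. Each genotype had 1 RNA library, so the differences below have no replicates behind them and come without p-values.

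C2H2 zinc fingers are short folds in which a pair of cysteines and a pair of histidines hold a zinc ion, and strings of them read DNA sequence. Many mouse Zfp proteins carry a KRAB domain that recruits the corepressor TRIM28 and the histone methyltransferase SETDB1, and they are best known for silencing transposable elements. BTB domains pair proteins with each other and can bind corepressors, and SCAN domains pair zinc finger proteins. KRAB zinc finger genes lie in clusters that grew by duplication, so neighbouring genes can be near-identical in sequence and hard to tell apart with short reads.

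The sequences below show how alike some of these genes are, which bears on how far their counts can be read singly. In the reference annotation, Zfp966 and Zfp967 (chromosome 2) had the same coding sequence, with 0 differences in 1455 bases, and the same promoter, with 0 differences in 300 bases. Their first zinc finger is printed with that of their neighbour Zfp965, 5′ to 3′ on the coding strand, with the codons of the cysteines and histidines in capitals. The positions are those of GENCODE models on GRCm38, the assembly behind mm10.
Zfp966, chr2:175921217-175921279, minus strand: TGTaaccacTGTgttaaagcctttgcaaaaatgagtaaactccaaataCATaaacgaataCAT
Zfp967, chr2:176530825-176530887, plus strand: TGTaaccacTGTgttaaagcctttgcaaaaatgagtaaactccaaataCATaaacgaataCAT
Zfp965, chr2:175479750-175479812, plus strand: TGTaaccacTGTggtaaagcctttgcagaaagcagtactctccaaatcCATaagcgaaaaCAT
The finger of Zfp965 differed from that of Zfp966 in 9 of 63 bases. The promoter shared by Zfp966 and Zfp967, the 300 bases around the annotated start in RefSeq (GRCm38.p6), is printed once, on the gene strand and in lower case throughout because the copies had no differing base.
Zfp966, chr2:175931051-175931350, minus strand: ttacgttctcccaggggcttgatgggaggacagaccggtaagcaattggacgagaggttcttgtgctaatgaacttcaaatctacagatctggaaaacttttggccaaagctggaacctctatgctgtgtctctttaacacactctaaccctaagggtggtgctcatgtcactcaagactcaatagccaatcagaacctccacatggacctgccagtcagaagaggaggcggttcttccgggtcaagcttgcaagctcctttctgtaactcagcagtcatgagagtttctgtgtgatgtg

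Zfp97 and Zfp960 (chromosome 17) were less alike, with 30 differences in 1638 coding bases, and 20 of their 546 amino acids differed. The 100-base coding window with the most differences, 18, is printed for both, with the differing bases in capitals.
Zfp97, chr17:17145485-17145584, plus strand: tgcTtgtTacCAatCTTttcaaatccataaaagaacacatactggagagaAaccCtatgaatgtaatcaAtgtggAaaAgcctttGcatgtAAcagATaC
Zfp960, chr17:17088270-17088369, plus strand: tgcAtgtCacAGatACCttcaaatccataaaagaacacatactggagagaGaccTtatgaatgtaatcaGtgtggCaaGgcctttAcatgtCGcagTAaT
Reads from such a window carry bases that tell the copies apart, whereas reads from the finger of Zfp966 carry none that separate it from Zfp967.

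Over the listed genes the counts came to 689004.63 in AdipKO and 802994.76 in WT organoids, and these sums are not depths because the tables hold a selected part of the genes. The tables hold no gene with a count ratio between 2.06-fold lower and 1.94-fold higher. The size of a member's difference near 2-fold is therefore set by the selection, and its direction is what the table leaves free. Adipoq, the targeted gene, was not listed, so the genotypes rest on the labels, AdipKO and WT mean the libraries so labelled throughout, and an exchange of labels would turn every direction. The crypt genes Lgr5, Tnfrsf19, Mycl, Lyz1, Ascl2 and Olfm4 were listed, and 6 of 6 were lower in the library labelled AdipKO. Lgr5, a stem cell receptor for R-spondin, had 3127 counts there against 7858, and Olfm4 had 34083 against 92810. The study's text gives the opposite direction for these genes, from RNA-seq and from qRT-PCR of the same genes in organoids. By immunostaining it also reports more Lgr5-positive and more Ki67-positive cells in the AdipKO organoids. Whether the labels were exchanged cannot be told from the tables. None of 8 epithelial, 1 of 8 fibroblast (Vim, 109 and 322 counts in the AdipKO and WT libraries), 2 of 7 immune (Cd68 with 235 and 109, Itgam with 57 and 25) and none of 4 endothelial markers were listed. Of all RefSeq protein-coding genes, 6.51% were listed. The part of other cells in the results was not tested, and in bulk RNA fewer cells of a type cannot be told apart from less RNA per cell.

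More of the zinc finger genes had fewer counts in the AdipKO library than had more. Of the 27 genes, 18 (66.7%) were lower, against a background of 62.2% of all listed genes, and 9 (33.3%) were higher, against 37.8%. The split of the zinc finger genes was thus near that of the whole table. By a ratio of 2-fold or more with 1 added to each count, 18 were lower (background 62.2%) and 6 were higher (background 35.3%). At 4-fold or more, 2 were lower, Zfp967 and Zfp354b (background 13.6%), and 2 were higher, Zfp385b and Zfp966 (background 9.94%). The median log2 ratio, with 1 added to each count, was -1.07 over the group and -1.15 over all listed genes. Most genes were lower and none lay in the gap, so both medians had to fall at about 2-fold lower or beyond. They restate the split and do not measure a size. The group was not listed more often than other genes: 27 of 476 RefSeq protein-coding genes that meet the symbol rule were in the tables (5.67%), as were 1426 of 21900 protein-coding genes (6.51%). No group member was at 0 in either library, and 1, Zfp354b, had fewer than 16 counts over both. Intervals given with a fold are exact 95% intervals of the ratio of the rounded counts, and they cover counting error only. They take fractional counts as observed reads, so any error in dividing reads between genes is not covered. They left out equal counts in 27 of 27 genes, as in 98.7% of all listed genes, which the selection by ratio largely fixed. They lay wholly above 2-fold in 6 of 27, beside 34.9% of all listed genes. The 6 were Zbtb45, Zfp385b, Zfp446, Zfp503, Zfp966 and Zfp967. Of these, Zfp966 and Zfp967 had fractional counts, and their sum was 1.56-fold lower (1.32 to 1.86).

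**Figure D1:**
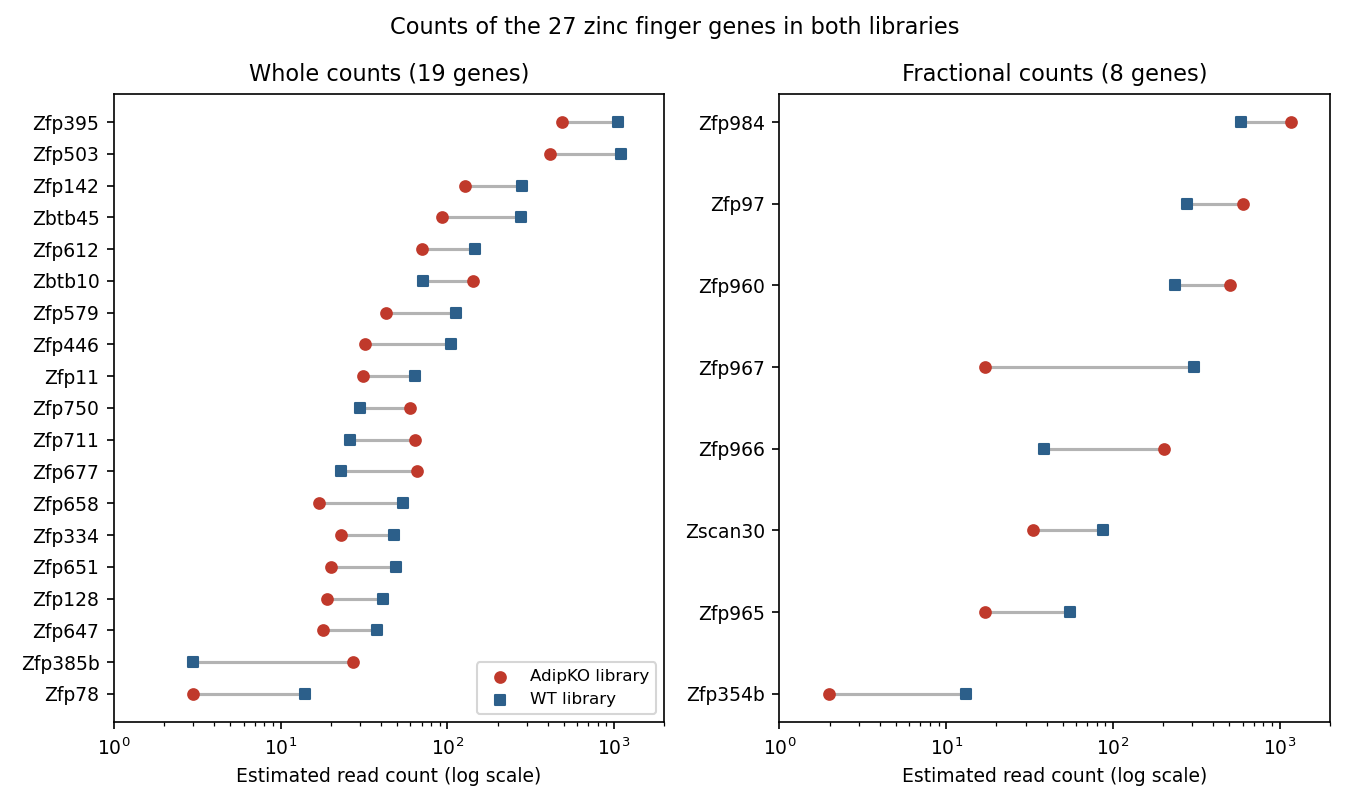
Estimated read counts of the 27 genes (log axis) in the AdipKO library (circles) and the WT library (squares), 1 library each, with 19 genes that had whole counts in both libraries on the left and 8 with fractional counts on the right; lines join the values of a gene. Of the genes with whole counts, 14 lie further left, at fewer counts, in the AdipKO library, and of those with fractional counts 4 do.

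Whole and fractional counts separated the group. Whole numbers in both libraries were found for 19 genes (70.4%), and decimals for 8 (29.6%), against 14.4% of all listed genes. Decimals can arise where a counting program divides a read that fits several transcripts; no source used here named the program. Of the 19 genes with whole counts, 14 were lower in the AdipKO library (73.7%, against 61.1% of all listed genes with whole counts) and 5 were higher. Of the 8 with fractional counts, 4 were lower (50.0%, against 68.9% of the listed genes with fractional counts) and 4 were higher. Summed over genes, whole counts came to 1754 in AdipKO and 3537 in WT organoids, and fractional counts to 2555.31 and 1599.91. The genes with the most counts in the AdipKO library, Zfp984, Zfp97 and Zfp960, all had fractional counts.

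Sequence shared with other genes went with the decimals. GENCODE transcripts of each gene were split into windows of 100 bases, the read length, and a window was called shared if a transcript of another gene held it on either strand. Of the 8 genes with fractional counts, 7 had more than 10% of their windows shared, with a median over the 8 of 67.8% and a range of 0 to 100%. Of the 19 with whole counts, 17 had no shared window. Zfp142 had 15.7%, all with a retained-intron transcript of its neighbour Plcd4, and Zfp651 had 0.141%, with an antisense transcript. Over all listed genes, 68.0% of 175 genes with fractional counts and 8.04% of 1232 with whole counts had more than 10% of windows shared. Zscan30 was the exception, with fractional counts of 33.27 and 87.24 and no shared window. It had no coding transcript in GENCODE and was matched through other transcripts of its symbol.

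**Figure D2:**
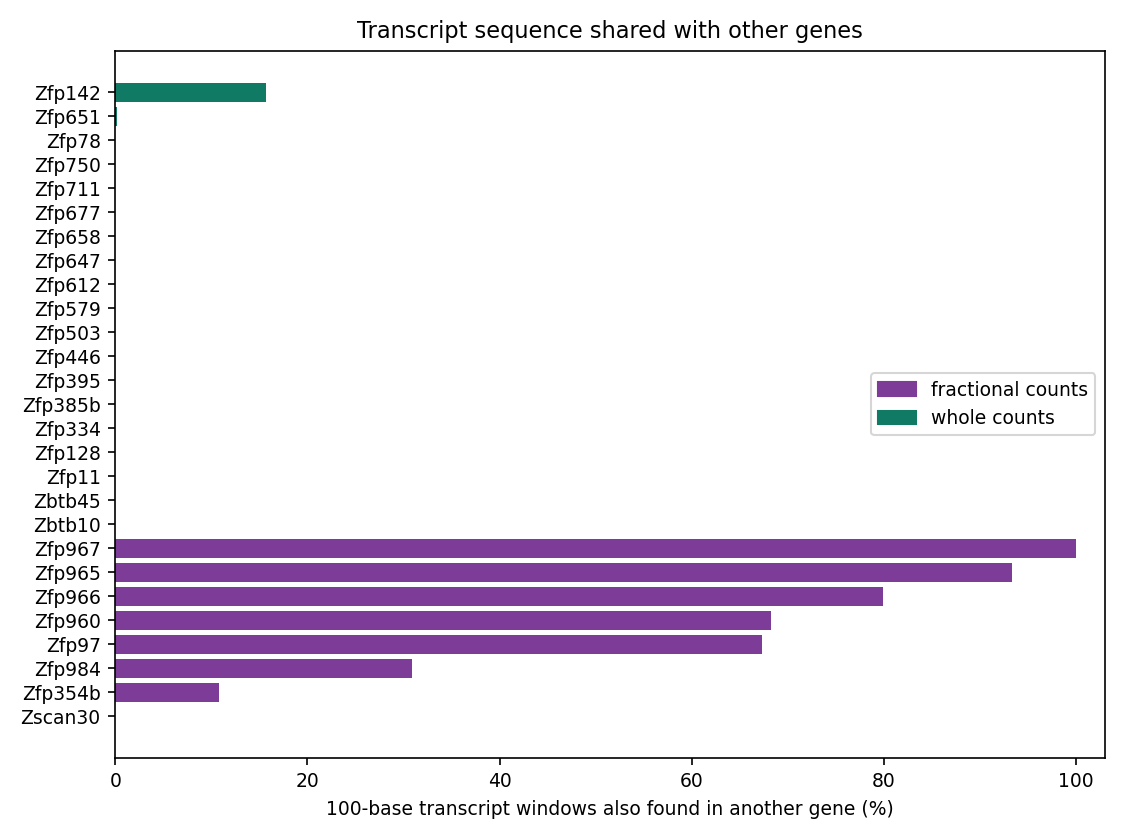
Percent of 100-base windows of each gene's GENCODE transcripts that another gene's transcripts also hold, for the 27 genes; purple bars are genes with fractional counts and green bars genes with whole counts. The highest values are 100% for Zfp967 and 93.4% for Zfp965, and 17 of the 19 genes with whole counts are at 0.

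Among the genes with whole counts, the most abundant were lower in the AdipKO library. Zfp503, known as Nolz1, is a zinc finger corepressor of the NET family that acts in striatal development. It had 412 counts in AdipKO and 1100 in WT organoids, 2.67-fold lower (95% interval 2.38 to 3.0). Its coding sequence held no match to the C2H2 pattern searched, and neither did that of Zfp750. Zfp395, whose human counterpart is known as papillomavirus binding factor, had 486 and 1054 counts, 2.17-fold lower (1.95 to 2.42). These genes were also the highest with whole counts per kilobase of transcript, at 261 and 249 counts per kb in the WT library and 97.7 and 115 in the AdipKO library. Zfp142, the member with the most C2H2 matches (36 in the translated coding sequence), had 128 and 281 counts, 2.20-fold lower (1.78 to 2.73).

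The BTB genes did not share a direction. Zbtb45, a BTB zinc finger protein tied to glial differentiation, had 93 counts in AdipKO and 278 in WT organoids, 2.99-fold lower (2.36 to 3.82). Zfp651, whose protein is also called ZBTB47 and has a BTB domain, had 20 and 49 counts, 2.45-fold lower (1.43 to 4.35). Zbtb10, whose human counterpart represses genes of Sp transcription factors, went the other way with 142 and 71 counts, 2.00-fold higher (1.49 to 2.70). RefSeq holds 41 protein-coding genes whose symbols start with Zbtb, so the others were not analysed here. None of 11 genes of further BTB proteins or their partners, among them Cul3, Bcor and Bcl6, was listed. None of 28 corepressor genes, among them Trim28, Setdb1, the Cbx and Dnmt genes and the histone deacetylases Hdac1, Hdac2 and Hdac3, was listed either. Only 6.51% of RefSeq protein-coding genes were listed, so absence from lists this short says little about these genes.

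The remaining genes with whole counts that were lower in the AdipKO library had at most 146 counts in either library. Zfp612 had 70 and 146 counts in the AdipKO and WT libraries, 2.09-fold lower (1.56 to 2.81), and Zfp579 had 43 and 112, 2.60-fold lower (1.82 to 3.79). Zfp446, a SCAN-domain zinc finger gene, had 32 and 105 counts, 3.28-fold lower (2.19 to 5.04). Zfp11 had 31 and 64 counts. These had 16, 8, 3 and 21 C2H2 matches. Zfp334 had 23 and 48 counts, Zfp128 had 19 and 41, and Zfp647 had 18 and 38, all between 2.09-fold and 2.16-fold lower with intervals that began at 1.18-fold to 1.24-fold. Zfp128 (mZnf8) is known to bind SMAD proteins. Zfp658, whose human counterpart is a zinc-responsive regulator of zinc transporters, had 17 and 54 counts, 3.18-fold lower (1.81 to 5.84). Zfp78 rested on 3 and 14 counts, 4.67-fold lower with an interval from 1.30 to 25.3.

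The 5 genes with whole counts that were higher in the AdipKO library were Zbtb10, given above, Zfp677, Zfp711, Zfp750 and Zfp385b. Zfp677 had 66 counts in AdipKO and 23 in WT organoids, 2.87-fold higher (1.76 to 4.83). Zfp711, an X-linked partner of the histone demethylase PHF8, had 64 and 26 counts, 2.46-fold higher (1.54 to 4.05). Zfp750, a regulator of terminal differentiation in epidermis, had 60 and 30 counts, 2.00-fold higher (1.27 to 3.21). Zfp385b gave the largest ratio of these genes at low counts, with 27 and 3, 9.0-fold higher (2.77 to 46.4).

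**Figure D3:**
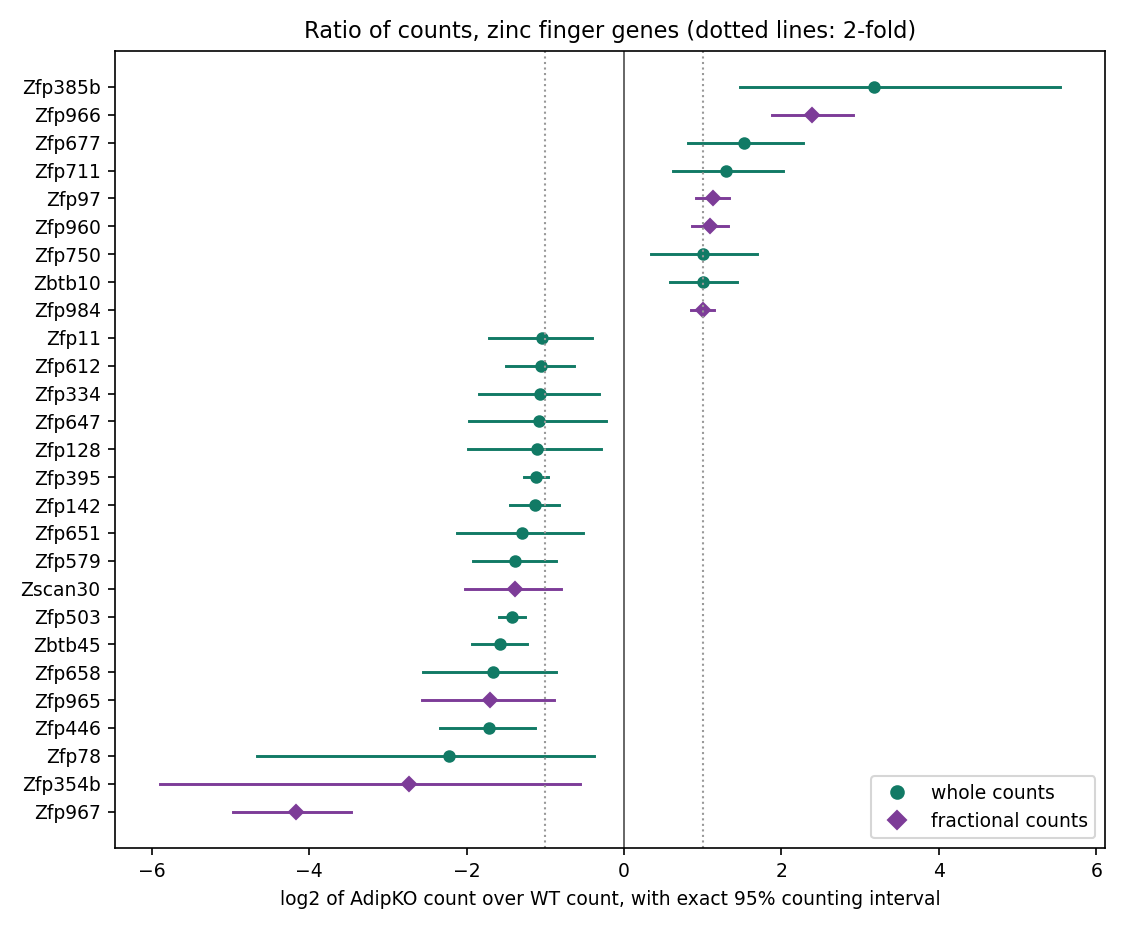
Log2 ratio of the AdipKO count over the WT count for the 27 genes (points) with exact 95% counting intervals (lines); circles are genes with whole counts and diamonds genes with fractional counts, and dotted lines mark 2-fold. The ratios run from -4.16 for Zfp967 to 3.17 for Zfp385b.

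The genes with fractional counts included the lowest ratio of the group, and it belonged to a copy of a gene that was higher. Zfp966 had 202.62 counts in AdipKO and 38.74 in WT organoids, 5.23-fold higher (3.68 to 7.53). Zfp967 had 17.04 and 304.93, 17.9-fold lower (11 to 31.2). These are the copies with 0 differences in coding sequence and promoter, each spanning 12818 bases in RefSeq. Every 100-base window of the GENCODE transcripts of Zfp967, 1677 of 1677, was also in Zfp966, and in Zfp968 and Zfp969, which were not listed. From the other side, 55.7% of the windows of Zfp966 were in Zfp967, and 79.9% were in any other gene. Of the counts given to the pair, Zfp966 took 92.2% in AdipKO (95% exact interval 87.9 to 95.4) and 11.3% in WT organoids (8.19 to 15.2). These intervals take the deposited counts as observed reads, so they do not measure the error of the share. Their sum was 219.66 in AdipKO and 343.67 in WT organoids, 1.56-fold lower (1.32 to 1.86). That ratio lies inside the range that the tables leave out, so the copies met the selection one by one and not as a sum. The part of the division of reads in their opposite directions was not tested. Zfp965 had 16.99 and 55.17 counts, 3.25-fold lower (1.85 to 5.95), and shared 93.4% of its windows, most of them with Zfp973.

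Zfp97 and Zfp960, zinc finger genes side by side on chromosome 17, were both higher in the AdipKO library and by about the same ratio. Zfp97 had 603.24 counts in AdipKO and 276.75 in WT organoids, 2.18-fold higher (1.89 to 2.52). Zfp960 had 504.34 and 235.67, 2.14-fold higher (1.83 to 2.50). Each shared 1706 windows with the other, 67.3% and 68.3% of its own. Zfp97 took 54.5% of the pair's counts in AdipKO (51.5 to 57.4) and 54.0% in WT organoids (49.6 to 58.4). The intervals of the shares overlapped, but they do not cover error in the division of reads between the copies. The sum was 1107.58 and 512.42, 2.16-fold higher (1.95 to 2.41), which does not depend on that division.

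Zfp984, on chromosome 4 from 147753974 to 147812229, had 1175.82 counts in AdipKO and 588.25 in WT organoids, 2.00-fold higher (1.81 to 2.21). It had the most counts of the group in AdipKO, also per kilobase of transcript (431 counts per kb), while in WT organoids its 216 counts per kb were below those of Zfp503 and Zfp395. It shared 738 windows (26.7%) with Gm13212, a C2H2 gene on the same chromosome outside the symbol rule, which had 799.27 and 193.92 counts. The sum of both was 1975.09 and 782.17, 2.53-fold higher (2.32 to 2.75). Zscan30, a SCAN zinc finger gene on chromosome 18 with the counts given above, was 2.62-fold lower (1.75 to 4.06). Zfp354b, a KRAB gene that shared 10.8% of its windows with its paralog Zfp354a, had 1.99 and 13.16 counts, 6.61-fold lower with a wide interval (1.47 to 59.3).

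By position, 8 of the 27 genes lay in 3 clusters in which gene starts were within 1 Mb of the next. On chromosome 7 from 12881178 to 13010047, Zfp128, Zfp446 and Zbtb45 were 3 of the 5 annotated genes of the symbol rule, and 3 of 3 were lower, with summed counts of 144 in AdipKO and 424 in WT organoids. Their counts were whole and none of their windows was shared with another gene. The other listed genes within 1 Mb, the zinc finger gene Mzf1 with 3 and 20 counts and Zswim9 with 43 and 90, were lower too. Over the whole of chromosome 7, 6 of 6 members were lower (Zfp579, Zfp78 and Zfp658 besides), where 61.3% of the 124 listed genes on that chromosome were. On chromosome 17, Zfp960 and Zfp97 spanned 17064103 to 17147138 with no other protein-coding gene of RefSeq inside, and LOC102640673 beside them had 320.47 and 153.51 counts, while Has1, the fourth listed gene within 1 Mb, had 6.19 and 26.03. Zfp677, on the same chromosome, was higher as well, which made 3 of 3, where 37.2% of the 78 listed genes there were higher. Zfp97 and Zfp960 share most of their windows, so they are not separate observations. Of the other chromosomes with more than 1 member, chromosome 2 had 3 lower and 2 higher, chromosome 11 had 1 of each and chromosome 14 had 2 lower.

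The cluster on chromosome 2, from 175470025 to 176533821, mixed directions. Zfp965 and Zfp967 were lower and Zfp966 between them was higher, and the listed C2H2 genes Gm4724 (284.53 and 128.03 counts) and Gm2007 (64.7 and 134.29) went opposite ways. All of these 5 had fractional counts, unlike Edn3, the other listed gene within 1 Mb, with 19 and 5. Summed, they had 585.88 counts in AdipKO and 661.16 in WT organoids, 1.13-fold lower (1.01 to 1.26), inside the range that the tables leave out. The first 3 alone summed to 236.65 and 398.84, 1.69-fold lower (1.43 to 1.99).

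**Figure D4:**
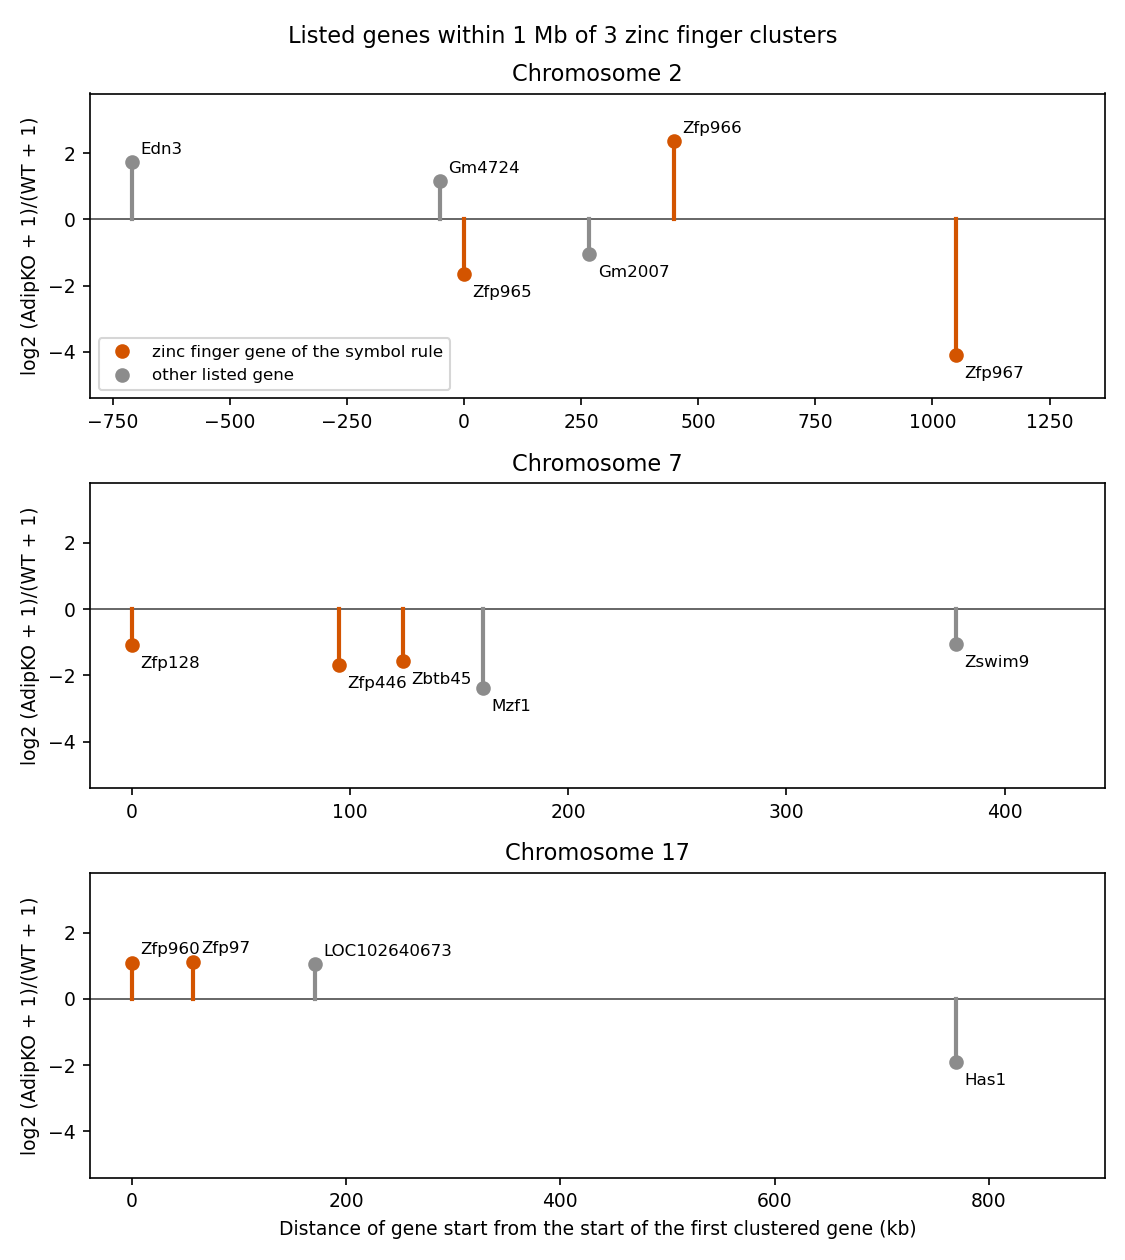
Log2 ratio, with 1 added to each count, of every listed gene within 1 Mb of the clusters on chromosomes 2, 7 and 17, against the distance of its start from the start of the first clustered gene in kb; orange marks genes of the symbol rule and grey other listed genes. On chromosome 7 all 5 genes lie below 0, and on chromosome 2 values run from -4.08 for Zfp967 to 2.36 for Zfp966.

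The genes that were higher and lower differed in median base composition, with ranges that overlapped. Transcripts of the 9 higher genes had a median GC content of 38.1% (range 36.5 to 50.0) and those of 17 lower genes 49.4% (40.3 to 63.8), beside 49.3% and 53.9% over all listed genes. Genes with fractional counts had a median of 37.9% and those with whole counts 49.4%. These splits are mixed: fractional counts were found in 4 of the 9 higher genes (44.4%) and 4 of the 18 lower genes (22.2%). The part of base composition in the directions was not tested. Promoter sequences in RefSeq were matched for 18 of the 27 genes. Their median GC content was 55.2%, beside 59.0% over 1136 listed genes. It was 58.3% for 13 lower genes (range 48.3 to 78.7) and 48.3% for 5 higher genes (44.7 to 78.0), so the ranges overlapped widely. The promoter of Zfp966, among the higher genes, had 48.3%, and so did those of Zfp967 and Zfp965, among the lower. The GC box GGGCGG, on either strand, was in 10 of 18 promoters (55.6%, as in 55.6% of the promoters of listed genes and 38.2% of all), and CCAAT was in 9 (50.0%, beside 42.3% and 41.1%). The promoter that Zfp966 and Zfp967 share holds CCAAT and was counted for each, once among the higher and once among the lower genes. The core of the NRF1 site was in 2 promoters (11.1%), those of Zfp334 and Zfp658, beside 0.968% of listed and 1.07% of all promoters. TATAAA was in that of Zfp354b alone, beside 14.4% and 15.7%. No motif of the 4 contains another, and a match is a description of the letters, not of binding.

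The promoters of Zfp128 and Zbtb45, neighbours on chromosome 7 that were both lower, are printed on the gene strand with GC boxes in capitals.
Zfp128, chr7:12880928-12881227, plus strand: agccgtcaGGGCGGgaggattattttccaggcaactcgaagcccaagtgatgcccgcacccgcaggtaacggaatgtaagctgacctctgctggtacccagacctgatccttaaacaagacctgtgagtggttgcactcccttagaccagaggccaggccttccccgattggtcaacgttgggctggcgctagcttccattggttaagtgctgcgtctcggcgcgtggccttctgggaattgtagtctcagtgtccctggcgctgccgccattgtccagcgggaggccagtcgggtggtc
Zbtb45, chr7:13009803-13010102, minus strand: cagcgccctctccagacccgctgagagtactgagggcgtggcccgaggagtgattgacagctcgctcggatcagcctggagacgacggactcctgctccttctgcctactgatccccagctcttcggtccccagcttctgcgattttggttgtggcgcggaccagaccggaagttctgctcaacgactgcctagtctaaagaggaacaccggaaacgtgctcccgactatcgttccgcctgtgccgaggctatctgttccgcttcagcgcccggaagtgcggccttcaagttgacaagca
Zfp128 held a GC box and CCAAT, whereas Zbtb45 held none of the 4 motifs. The promoters had 17 and 24 CG dinucleotides, beside a median of 14 over the listed genes.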

How the data were processed

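RNA from 1 AdipKO and 1 WT organoid culture was sequenced as 100-base paired reads (BGI). The submitters' processing notes name the build mm10. The authors deposited 1 table of estimated counts per gene for each library, not normalized, with 1448 genes. The counting program, annotation and strand setting are not stated in the labels or methods. The tables hold only genes that differ by about 2-fold or more, so depth is unknown.

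Genes were chosen by symbol start, and members and gene lists were chosen with earlier results of these data known. Values are given for every gene of the rule, with all Zbtb, Zscan, fractional and clustered genes, the 12 highest mean counts and the 10 largest ratios in each direction. Counts as deposited were compared without scaling, with 1 added for medians. The plan had assumed raw counts, so estimated counts were rounded for exact 95% Clopper-Pearson intervals. PCR reads are not independent molecules, and intervals cover counting error only. With 1 library per genotype no test was run. IDs of 1436 of 1448 genes matched RefSeq (GRCm38.p6), and 26 of 27 members had a coding GENCODE vM21 model. A C2H2 match was counted by pattern in the translated coding sequence. Interval and window routines were tested on simulated data. Sums over near-identical copies were added after seeing the data. Python 3.11.15, numpy 2.4.6, pandas 2.3.3, scipy 1.17.1, Biopython 1.88 and matplotlib 3.10.9 were used.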

Additional observations from a re-analysis of the deposited data

How the results depend on the processing

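Of 164 values under alternatives, 154 stayed within their limits. Of the 164, 140 were ratios of single genes, judged against the gene's own counting interval, which is wide at low counts. No pseudocount took a ratio out of its interval, so the tally is not a measure of stability. The number of genes higher in the AdipKO library was 5 with whole counts only, and at 4-fold 2 were lower and 2 higher. Scaling the libraries to equal listed sums shifted every log2 ratio by 0.22. It took Zfp395 to -0.90, Zfp503 to -1.20, Zfp97 to 1.35 and Zfp984 to 1.22, outside their intervals by the scaling itself. Centring on the gap in the ratios shifted every log2 ratio by 0.04. Neither scaling could change a direction, because no listed log2 ratio lies between -1.04 and 0.96. The unchanged numbers of lower and higher genes under these scalings were thus fixed by the selection. Under sums chosen after seeing the data, Zfp966 turned direction and Zfp967 came to the same log2 ratio of -0.65, since both are then the pair, and Zfp984 with Gm13212 came to 1.34. The median over the group stayed between -1.11 and -0.86 under scaling and pseudocounts, which the selection largely fixed, and the mean was -0.54. No paired analysis was possible because each genotype had 1 library and no test was run. Depth limits Zfp78, Zfp354b and Zfp385b most, each with 3 or fewer counts in a library.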

Other observations

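C2H2 genes outside the symbol rule were listed too. Among the listed genes, 19 others had at least 3 matches to the C2H2 pattern, 11 lower and 8 higher in the AdipKO library. Over all listed genes 62.2% were lower and 37.8% higher, so this split was near that of the whole table. The 19 genes included 3 Krüppel-like factors, which bind GC-rich promoter elements and act in epithelial growth and differentiation. Klf10 had 628 counts in AdipKO and 1414 in WT organoids, 2.25-fold lower (95% counting interval 2.05 to 2.48). Klf9 had 846 and 328, 2.58-fold higher (2.27 to 2.94), and Klf15 had 88 and 24, 3.67-fold higher (2.31 to 6.02). The Krüppel-like factors thus did not share a direction. Sp5, a target of Wnt signalling, had 172 and 466 counts, 2.71-fold lower (2.27 to 3.25). Prdm1, the gene of BLIMP1, a repressor of the fetal intestinal epithelium, had 8 and 38 counts, 4.75-fold lower (2.18 to 11.8). Zmat4 had 30 and 2 counts, a 15.0-fold ratio with a wide interval (3.81 to 129.5).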
